A study of Mus musculus with 24 samples.

Results

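The 36 genes described here carry glucose into the cell, break it down to pyruvate, exchange pyruvate with lactate, and pass pyruvate into the mitochondrion. They were listed by symbol, with earlier results of these data known. All 36 were found among the 26253 genes of the deposited count table and passed the filter on low counts. Lung RNA of mice was sequenced as 24 libraries, 6 in each of 4 groups, in a study of whether a diet rich in docosahexaenoic acid (DHA), an omega-3 fatty acid, changes what ozone does to the lung. The groups were mice fed the DHA-rich diet and exposed to ozone, mice fed the DHA-rich diet and exposed to filtered air, mice fed the control diet and exposed to ozone, and mice fed the control diet and exposed to filtered air. The diet was given before the exposure in every group, and strain, sex, age, ozone dose and time after exposure are not given in the labels. Whether each library is a mouse of its own is not stated either, so a p-value here reflects only how much the libraries at hand vary, which may be technical.

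Glycolysis splits glucose into pyruvate in the cytosol and yields a little ATP without oxygen. Pyruvate is then either reduced to lactate, which leaves the cell with a proton, or carried into mitochondria, where the pyruvate dehydrogenase complex turns it into acetyl-CoA for the tricarboxylic acid cycle. Lung epithelium makes lactate even when oxygen is plentiful, and activated macrophages, neutrophils and dividing cells raise their use of glycolysis. Many glycolytic genes are direct targets of hypoxia-inducible factors and of MYC, which bind DNA motifs that share the letters ACGTG or CACGTG.

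Promoters of 4 members are shown to let a reader see how the ACGTG core is placed in some members and absent from another. Ldha, Pgk1 and Tpi1 were higher after ozone on both diets, and Slc16a1 was called on the control diet, in groups that overlapped. Each sequence, taken from RefSeq on build GRCm38.p6, runs from 250 bases before to 50 bases after a transcription start, 5′ to 3′ on the gene's own strand. Letters in capitals are matches to ACGTG on either strand, so CACGTG, which holds an ACGTG on each strand, is counted as 2 overlapping matches. The Ldha promoter is at chr7:46845554-46845853 on the plus strand, with 5 matches in 3 separate stretches. The Pgk1 promoter is at chrX:106186850-106187149 on the plus strand, with 2 matches. The Slc16a1 promoter is at chr3:104638414-104638713 on the plus strand, with 3 matches in 2 stretches. The Tpi1 promoter is at chr6:124814109-124814408 on the minus strand, with 0 matches.
Ldha: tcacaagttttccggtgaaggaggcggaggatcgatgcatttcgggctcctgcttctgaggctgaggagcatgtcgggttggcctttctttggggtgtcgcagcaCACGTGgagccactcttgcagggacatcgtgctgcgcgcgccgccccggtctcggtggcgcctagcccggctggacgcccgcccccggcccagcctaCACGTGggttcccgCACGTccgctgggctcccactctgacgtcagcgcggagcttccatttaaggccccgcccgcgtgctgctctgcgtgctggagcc
Pgk1: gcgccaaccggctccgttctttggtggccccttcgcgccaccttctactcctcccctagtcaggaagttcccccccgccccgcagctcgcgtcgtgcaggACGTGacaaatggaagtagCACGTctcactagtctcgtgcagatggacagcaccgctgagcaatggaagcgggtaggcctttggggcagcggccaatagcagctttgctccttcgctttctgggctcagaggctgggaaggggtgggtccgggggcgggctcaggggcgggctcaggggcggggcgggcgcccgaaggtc
Slc16a1: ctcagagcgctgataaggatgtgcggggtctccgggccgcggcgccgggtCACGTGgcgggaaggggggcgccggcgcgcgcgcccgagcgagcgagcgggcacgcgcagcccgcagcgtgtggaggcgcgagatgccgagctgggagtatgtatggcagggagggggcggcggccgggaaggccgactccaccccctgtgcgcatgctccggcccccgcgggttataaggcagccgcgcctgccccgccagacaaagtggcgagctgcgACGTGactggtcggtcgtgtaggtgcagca
Tpi1: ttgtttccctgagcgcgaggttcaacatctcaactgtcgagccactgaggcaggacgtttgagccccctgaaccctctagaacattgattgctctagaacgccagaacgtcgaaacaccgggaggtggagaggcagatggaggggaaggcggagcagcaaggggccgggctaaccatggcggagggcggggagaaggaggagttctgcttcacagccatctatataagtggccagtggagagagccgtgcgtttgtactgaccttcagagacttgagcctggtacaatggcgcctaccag

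Over the table of RefSeq promoters, 35 of the 36 members were matched, with 55 promoters of 300 bases in all. ACGTG was present on either strand in 23 of these 55 (41.8%), against 6447 of all 32851 promoters (19.6%). By gene, 19 of the 35 matched members (54.3%) had it in at least 1 promoter, against 21.8% of the 27025 genes in the table. CACGTG was in 6 of the 55 member promoters and in 7.15% of all promoters. A match says only that these letters are in the window, and genes with several start sites have more windows to match in. The promoter positions are on another build than the deposited gene coordinates, which place Ldha at chr7:46495228-46505052, Pgk1 at chrX:105230706-105247306, Slc16a1 at chr3:104545980-104565779 and Tpi1 at chr6:124787551-124791122 of mm39.

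Library totals ran from 18053493 to 26225630 counts. Transcripts of 86 ribosomal protein genes took 1.63 to 1.71% of counts in control-diet air libraries 1 to 3, against 1.90 to 2.20% in the other air libraries of both diets. Ozone libraries lay between or among these, at 1.75 to 2.04% on the control diet and 1.89 to 2.16% on the DHA-rich diet. Results that rest on control-diet air libraries 1 to 3 are given with and without them. Levels are given as CPM, the unit of edgeR that sets each gene's count against its library's TMM-scaled total. Neutrophil markers summed to 279.2 and 364.8 CPM in DHA-diet ozone libraries 1 and 2, above the 204.2 CPM of the highest of the other 22 libraries. Markers of lung cells were plentiful, with sums of 91510 to 142200 CPM in DHA-diet ozone, 116800 to 132400 in DHA-diet air, 122500 to 164700 in control-diet ozone and 116200 to 150800 in control-diet air libraries. In whole lung, fewer cells of a type and less RNA per cell cannot be told apart.

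Per kilobase of transcript, the members covered a wide span of expression. Aldoa, the main aldolase, had the highest level, with a median of 411 CPM per kb over the 24 libraries. Ldhb, Ldha and Pkm followed at 245, 209 and 175 CPM per kb, where the libraries ran from 167 to 334 for Ldhb and from 166 to 271 for Ldha, so these neighbours overlap. Among hexokinases Hk1 led with 21.6 CPM per kb, above Hk2 with 7.11 and Hk3 with 1.72, and these 3 ranges did not overlap. Among the phosphofructokinases Pfkl (23.3), Pfkm (19) and Pfkp (14.3 CPM per kb) lay close together. The lowest was Pfkfb1 at 0.983 CPM per kb. Gapdh, usually among the most abundant transcripts, had only 2.72 CPM per kb, and 78.0% of its 100-base stretches also occur in transcripts of 86 other genes. Its counts, like those of Pgk1 (67.0% shared), Eno1 (59.0%), Pgam1 (39.7%), Pfkfb2 (23.9%), Mpc1 (19.7%), Pfkp (16%), Pdha1 (12%) and Pdhb (10.5%), are therefore uncertain, since reads from the shared stretches could be dropped or moved between copies. The other members shared less than 10% of such stretches. For 50-base stretches the shares were 34.4% for Pkm, 27% for Ldhb, 25.3% for Gpi1, 16.6% for Ldha and 13.5% for Aldoa, and the labels give no read length, so the counts of these genes are uncertain too.

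Ozone raised a set of glycolytic genes on both diets, most clearly the enzymes between aldolase and lactate. On the DHA-rich diet, 16 of the 36 members rose and 2 fell after ozone, which is 44.4% and 5.56%, where 12.7% of all 16153 genes tested rose and 11% fell. On the control diet, 10 members rose and 2 fell, 27.8% and 5.56%, against 8.93% of all genes higher and 7.87% lower. Since the members were chosen with earlier results of these data known, these shares describe the list and do not test it. The members' median log2 change was 0.19 on the DHA-rich diet and 0.11 on the control diet, and the median of all genes was −0.01 in both. All the changes were modest: every called member changed by 1.5-fold or less. The 9 members called higher on both diets were Aldoa, Aldoc, Tpi1, Pgk1, Eno1, Pkm, Ldha, Pdk3 and Mpc2. The ozone comparisons of the 2 diets share no libraries, but come from the same fit, with a common filter, scaling and spread. Adjusted p-values here and below are from the quasi-likelihood test of edgeR, adjusted by Benjamini and Hochberg's method over all genes tested, called under 0.05, and changes are log2 fold changes ± SE.

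With library totals as the only scaling, the split of all genes called on the control diet moved to 940 higher and 1737 lower, from a fit with trimmed-mean (TMM) scaling that had 1442 higher and 1271 lower, and the members then had 9 higher and 4 lower. Without control-diet air libraries 1 to 3, 8 members were higher and 1 lower on that diet, and 852 of all genes were higher and 951 lower. Without DHA-diet ozone libraries 1 and 2, 15 members were higher and 2 lower on the DHA-rich diet, and 1937 of all genes were higher and 1664 lower.

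**Figure D1:**
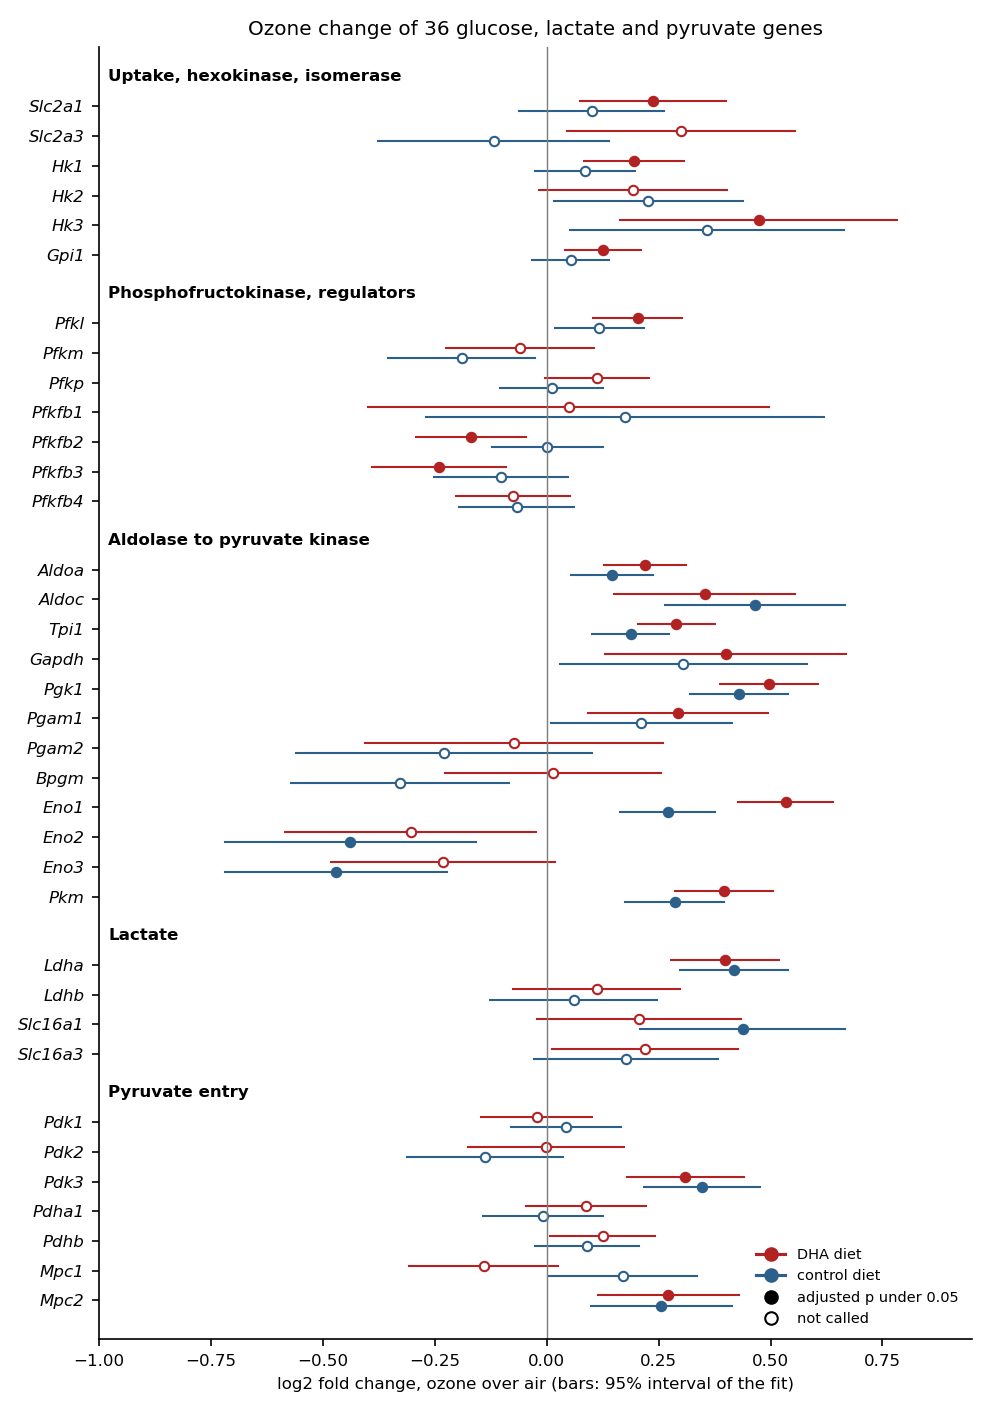
Log2 fold change of ozone over air for each of the 36 genes, grouped by step, with the DHA-rich diet above the control diet; bars are 95% intervals and filled points passed the adjusted p under 0.05. Filled points lie right of 0 for the aldolase to pyruvate kinase steps, apart from Eno2 and Eno3 on the control diet.

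Of the 6 genes of glucose uptake and the early steps, 4 (66.7%) rose after ozone on the DHA-rich diet and 0 passed the test on the control diet. Of all genes tested, 12.7% rose on the DHA-rich diet and 8.93% on the control diet. Hk1, the hexokinase that traps glucose as glucose phosphate and is bound to mitochondria in most tissues, had 90.9 to 108 CPM (median 99.9) in DHA-diet ozone libraries, against 78.7 to 89.8 CPM (median 88.2) in DHA-diet air libraries. All 6 ozone libraries lay above the air libraries on that diet. Hk1 rose 1.15-fold, a log2 change of 0.20 ± 0.05 (SE; adjusted p = 0.00908), and on the control diet its change was 0.09 ± 0.05 (adjusted p = 0.291), with 88.3 to 101 CPM (median 96.6) in control-diet ozone libraries, against 77.2 to 97.1 CPM (median 91.01) in control-diet air libraries. Without control-diet air libraries 1 to 3 that change was 0.19 and passed the threshold (adjusted p = 0.0447).

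The other 3 risers were Slc2a1, the widely expressed glucose transporter of the cell surface, Hk3, a hexokinase found in myeloid cells, and Gpi1, which turns glucose phosphate into fructose phosphate. Their folds on the DHA-rich diet ran from 1.09 for Gpi1 to 1.39 for Hk3, with adjusted p of 0.0212 to 0.0283. None of these 3 was called on the control diet, where Slc2a1 changed by 0.10 ± 0.08 (adjusted p = 0.41), Gpi1 by 0.05 ± 0.04 (adjusted p = 0.403) and Hk3 by 0.36 ± 0.15 (adjusted p = 0.0948). The control-diet change of Hk3 was called without control-diet air libraries 4 to 6 (0.54, adjusted p = 0.0446) and without DHA-diet ozone libraries 1 and 2 (0.36, adjusted p = 0.0395). Of 9 neutrophil markers tested, 7 (77.8%) were called higher on the DHA-rich diet, where 12.7% of all genes were. On the control diet 1 of 9 (11.1%) was higher, against 8.93% of all genes. The median log2 change of these markers was 1.29 on the DHA-rich diet and 0.05 on the control diet. The summed neutrophil markers are set against Hk3 below. The Slc2a1 call ended without DHA-diet air library 1, 2 or 3 and without DHA-diet ozone library 2 or 6, with adjusted p of 0.0523 to 0.0782. That of Hk3 ended without DHA-diet air library 2 (log2 change 0.40, adjusted p = 0.0546) and without DHA-diet ozone library 2 (0.32, adjusted p = 0.0794). That of Gpi1 ended without DHA-diet air library 3 or DHA-diet ozone library 2, with adjusted p of 0.0761 and 0.0803. Hk2, the inducible hexokinase, and Slc2a3, a glucose transporter of neurons and white blood cells, were not called on either diet, with log2 changes of 0.19 ± 0.10 (adjusted p = 0.168) and 0.30 ± 0.12 (adjusted p = 0.0756) on the DHA-rich diet and 0.23 ± 0.10 (adjusted p = 0.127) and −0.12 ± 0.12 (adjusted p = 0.557) on the control diet. Slc2a3 on the DHA-rich diet passed the threshold without DHA-diet ozone library 3 (0.38, adjusted p = 0.0255) or without control-diet air library 2 (0.30, adjusted p = 0.0443).

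The phosphofructokinase step, where glycolysis is committed, had 1 gene higher and 2 lower of 7 on the DHA-rich diet and 0 called on the control diet. These are 14.3% and 28.6% on the DHA-rich diet, against 12.7% of all genes higher and 11% lower. The share higher was thus near that of all genes. Pfkl, the liver-type subunit, had 86.9 to 102 CPM (median 92.99) in DHA-diet ozone libraries, against 77.2 to 90.8 CPM (median 80.01) in DHA-diet air libraries, and only air library 6 reached into the ozone range. It rose 1.15-fold, a log2 change of 0.20 ± 0.05 (SE; adjusted p = 0.00288), and its change on the control diet was 0.12 ± 0.05 (adjusted p = 0.0916). Pfkfb3, a bifunctional enzyme that makes the fructose bisphosphate activating phosphofructokinase, fell on the DHA-rich diet. It had 70.9 to 107 CPM (median 90.9) in DHA-diet ozone libraries, against 93.1 to 115 CPM (median 108) in DHA-diet air libraries. Ozone library 4 was the lowest, and ozone libraries 2 and 6 lay inside the air range. The change was 0.85-fold, a log2 change of −0.24 ± 0.07 (SE; adjusted p = 0.0152), and the call ended in a fit of those 2 groups alone (adjusted p = 0.0558). On the control diet Pfkfb3 had 89.5 to 92.5 CPM (median 91.8) in control-diet ozone libraries, against 82.7 to 104 CPM (median 101) in control-diet air libraries, a change of −0.10 ± 0.07 (adjusted p = 0.361). Pfkfb2, a second enzyme of that kind, known best from heart, also passed the test downward on the DHA-rich diet, at 0.89-fold. Its call ended without DHA-diet air library 3, 5 or 6 and without DHA-diet ozone library 1, 4, 5 or 6, with adjusted p of 0.0561 to 0.103.

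The other 4 genes of this step were not called. Pfkp, the platelet-type subunit, changed by 0.11 ± 0.06 (adjusted p = 0.147) on the DHA-rich diet and 0.01 ± 0.06 (adjusted p = 0.922) on the control diet, and Pfkfb4 by −0.08 ± 0.06 (adjusted p = 0.403) and −0.07 ± 0.06 (adjusted p = 0.495) in the same order. Pfkfb1, the liver-type bifunctional enzyme, was scarce, at 0.888 to 2.54 CPM over the 24 libraries, and changed by 0.05 ± 0.21 (adjusted p = 0.898) on the DHA-rich diet and 0.18 ± 0.21 (adjusted p = 0.622) on the control diet. Pfkm, the muscle-type subunit, changed by −0.06 ± 0.08 (adjusted p = 0.63) on the DHA-rich diet and by −0.19 ± 0.08 (adjusted p = 0.0988) on the control diet, where it passed the threshold without control-diet air library 6 (−0.24, adjusted p = 0.0457) or DHA-diet ozone library 1 (−0.20, adjusted p = 0.0416).

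The lower stretch of the pathway, from aldolase to pyruvate kinase, had 8 of 12 genes higher (66.7%) and 0 lower on the DHA-rich diet. Of all genes, 12.7% were higher and 11% lower there. On the control diet 6 of 12 were higher (50%) and 2 lower (16.7%), against 8.93% and 7.87% of all genes. Pgk1, which yields the pathway's earliest ATP, had 43 to 50.8 CPM (median 46.8) in DHA-diet ozone libraries, against 31.9 to 35.2 CPM (median 32.9) in DHA-diet air libraries. On the control diet it had 41.9 to 52.8 CPM (median 45.95) in control-diet ozone libraries, against 32.7 to 37.7 CPM (median 33.8) in control-diet air libraries. All 6 ozone libraries were above all 6 air libraries on each diet, and the rise was 1.41-fold, a log2 change of 0.50 ± 0.05 (SE; adjusted p = 8.92e-07) on the DHA-rich diet and 0.43 ± 0.05 (adjusted p = 1.38e-05) on the control diet. Eno1, the widespread enolase, which makes phosphoenolpyruvate, had 78.8 to 94.1 CPM (median 81.9) in DHA-diet ozone libraries, against 54.4 to 62.4 CPM (median 57.8) in DHA-diet air libraries. In the control-diet groups Eno1 had 71.4 to 85.2 CPM (median 76.2) in control-diet ozone libraries, against 60.5 to 68 CPM (median 63.9) in control-diet air libraries. Again the groups did not overlap on either diet, and the log2 rise was 0.53 ± 0.05 (adjusted p = 1.89e-07) on the DHA-rich diet and 0.27 ± 0.05 (adjusted p = 0.000665) on the control diet. Pkm, the pyruvate kinase of most tissues other than liver and red cells, had 459.8 to 611 CPM (median 487) in DHA-diet ozone libraries, against 368 to 413 CPM (median 381) in DHA-diet air libraries. With the control diet Pkm had 437 to 496 CPM (median 459) in control-diet ozone libraries, against 368 to 392 CPM (median 385) in control-diet air libraries. Ozone library 1 of the DHA-rich diet stood highest, all ozone libraries were above the air libraries of the same diet, and the rise was 0.40 ± 0.05 (adjusted p = 1.19e-05) on the DHA-rich diet and 0.29 ± 0.05 (adjusted p = 0.000556) on the control diet.

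Tpi1, which interconverts the triose phosphates made by aldolase, had 163 to 180.4 CPM (median 168) in DHA-diet ozone libraries, against 132 to 149 CPM (median 137) in DHA-diet air libraries. With the control diet Tpi1 had 159 to 182 CPM (median 163) in control-diet ozone libraries, against 137 to 155 CPM (median 146) in control-diet air libraries. Every ozone library exceeded every air library on the same diet, and the rise was 0.29 ± 0.04 (adjusted p = 2.24e-05) on the DHA-rich diet and 0.19 ± 0.04 (adjusted p = 0.00275) on the control diet. Aldoa had 632 to 719.7 CPM (median 689.5) in DHA-diet ozone libraries, against 565 to 618 CPM (median 575) in DHA-diet air libraries, with no overlap. On the control diet it had 639 to 715 CPM (median 672) in control-diet ozone libraries, against 575 to 669 CPM (median 597) in control-diet air libraries, and there the groups overlapped. It rose by 0.22 ± 0.04 (adjusted p = 0.000727) on the DHA-rich diet and by 0.14 ± 0.04 (adjusted p = 0.0242) on the control diet. The control-diet call of Aldoa ended with library totals as the scaling (adjusted p = 0.0601), without any 1 of air libraries 1, 3 and 4 and ozone libraries 1, 2 and 3 of that diet (adjusted p of 0.0530 to 0.0650), and without control-diet air libraries 1 to 3 (0.194). Aldoc, the aldolase best known from brain, was scarce and had 8.39 to 11 CPM (median 9.88) in DHA-diet ozone libraries, against 6.46 to 8.81 CPM (median 7.96) in DHA-diet air libraries. In mice on the control diet Aldoc had 10.3 to 12.1 CPM (median 11.5) in control-diet ozone libraries, against 6.79 to 9.80 CPM (median 8.26) in control-diet air libraries, where the groups did not overlap. On the DHA-rich diet the lowest ozone library lay just below the highest air library. Its rise was 0.35 ± 0.10 (adjusted p = 0.0092) on the DHA-rich diet and 0.47 ± 0.10 (adjusted p = 0.00157) on the control diet.

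**Figure D2:**
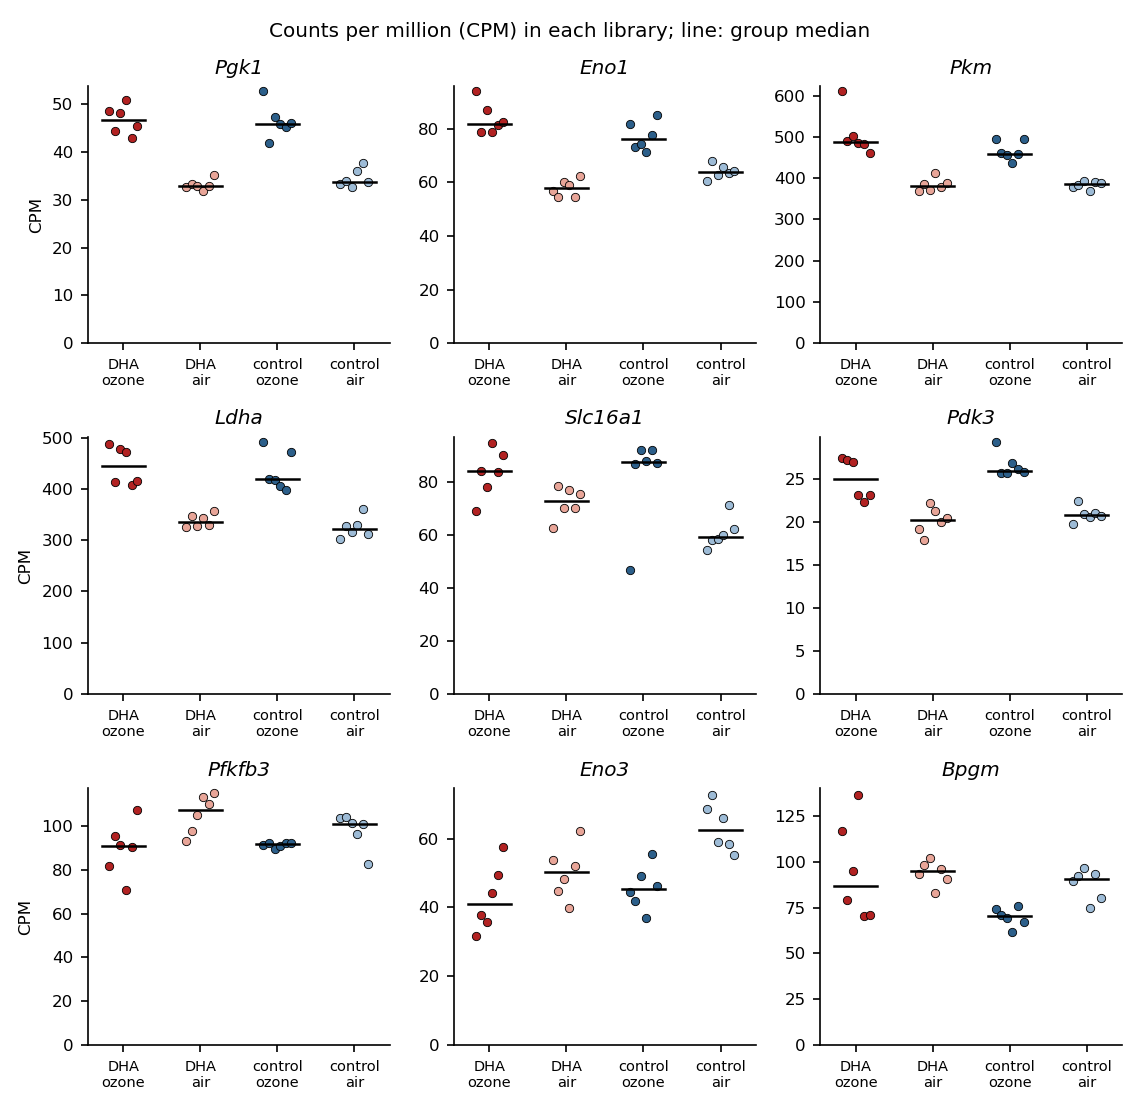
CPM in every library for 9 of the genes, with DHA-diet ozone, DHA-diet air, control-diet ozone and control-diet air from left to right and a line at each group median. Ozone libraries stand above air libraries for Pgk1, Eno1, Pkm, Ldha and Pdk3 on both diets, while 1 control-diet ozone library of Slc16a1 lies at 47.0 CPM, below all the air libraries.

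Gapdh and Pgam1, the enzymes just before and just after Pgk1, also passed the test upward on the DHA-rich diet, at 1.32-fold and 1.23-fold, at low levels of 3.40 to 5.80 CPM for Gapdh and 11.6 to 19.6 CPM for Pgam1 in the libraries of that diet. The Gapdh call ended without DHA-diet air library 3 or 5 or DHA-diet ozone library 2 or 5 (adjusted p of 0.0526 to 0.0606) and the Pgam1 call without DHA-diet air library 1 or 6 or DHA-diet ozone library 1 or 4 (0.0565 to 0.0742). Both ended without DHA-diet ozone libraries 1 and 2 together (0.0709 for Gapdh and 0.0594 for Pgam1). Eno3 and Eno2, the enolases typical of muscle and of neurons, went the other way on the control diet. Eno3 had 36.9 to 55.6 CPM (median 45.2) in control-diet ozone libraries, against 55.1 to 72.7 CPM (median 62.5) in control-diet air libraries. Only the highest ozone library reached the lowest air library, and the change was 0.72-fold, a log2 change of −0.47 ± 0.12 (SE; adjusted p = 0.00764). On the DHA-rich diet Eno3 had 31.7 to 57.5 CPM (median 41.05) in DHA-diet ozone libraries, against 39.9 to 62.3 CPM (median 50.2) in DHA-diet air libraries, a change of −0.23 ± 0.12 (adjusted p = 0.167), which passed the threshold without DHA-diet ozone library 6 (−0.34, adjusted p = 0.0331). Without control-diet air libraries 1 to 3 the control-diet call of Eno3 ended (−0.39, adjusted p = 0.0873). Eno2 had 3.61 to 5.95 CPM (median 3.89) in control-diet ozone libraries, against 4.85 to 6.97 CPM (median 5.76) in control-diet air libraries, and ozone library 2 was the only one of its group inside the air range. Its change was 0.74-fold, a log2 change of −0.44 ± 0.13 (SE; adjusted p = 0.0248), lost without air library 6 or without ozone library 1, 3 or 6 of the control diet (adjusted p of 0.0524 to 0.0620). On the DHA-rich diet the change of Eno2 was −0.30 ± 0.13 (adjusted p = 0.102), with 3.35 to 5.00 CPM (median 4.47) in DHA-diet ozone libraries, against 4.13 to 6.26 CPM (median 5.44) in DHA-diet air libraries.

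Bpgm, which makes the bisphosphoglycerate that loosens oxygen from haemoglobin in red cells, was not called but lay at the threshold on the control diet. It had 61.6 to 75.8 CPM (median 70.2) in control-diet ozone libraries, against 74.95 to 96.5 CPM (median 90.9) in control-diet air libraries, a log2 change of −0.33 ± 0.12 (adjusted p = 0.0526). It was called, with adjusted p of 0.0181 to 0.0457, without control-diet air library 4 or 6 and without DHA-diet ozone library 1, 2, 4, 5 or 6. DHA-diet libraries enter this comparison through the filter, scaling and spread that all libraries share. DESeq2 called it as well (adjusted p = 0.0318). On the DHA-rich diet it had 70.3 to 137 CPM (median 86.98) in DHA-diet ozone libraries, against 83.04 to 102 CPM (median 94.8) in DHA-diet air libraries, a change of 0.01 ± 0.12 (adjusted p = 0.945). Pgam2, the muscle-type phosphoglycerate mutase, changed by −0.07 ± 0.16 (adjusted p = 0.782) on the DHA-rich diet and −0.23 ± 0.16 (adjusted p = 0.344) on the control diet.

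Proliferation markers, 10 genes of DNA replication and mitosis, also rose after ozone on both diets. They summed to 160.7 to 413.5 CPM in DHA-diet ozone libraries, against 118.3 to 140.3 CPM in DHA-diet air libraries, and to 185.1 to 262.6 CPM in control-diet ozone libraries, against 114.2 to 127.1 CPM in control-diet air libraries. All 10 were called higher on each diet and 0 of them were at 0 in all libraries. Of all genes tested, 12.7% were higher and 11% lower on the DHA-rich diet, and 8.93% and 7.87% on the control diet. Macrophage markers, also 10, summed to 6365 to 7251 CPM in DHA-diet ozone against 6366 to 7252 CPM in DHA-diet air libraries. The sums were 5915 to 6647 CPM in control-diet ozone against 4685 to 6638 CPM in control-diet air libraries. Single macrophage markers did change: 4 were called higher and 1 lower on the DHA-rich diet, and 3 higher and 0 lower on the control diet. Their log2 changes on the DHA-rich diet ran from −0.29 to 0.99. The part of either marker list in the results was not tested.

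At the branch to lactate, Ldha, the lactate dehydrogenase subunit that favours making lactate, rose on both diets. It had 407 to 488 CPM (median 444) in DHA-diet ozone libraries, against 325 to 356 CPM (median 336) in DHA-diet air libraries. In the control-diet groups Ldha had 397 to 492 CPM (median 418) in control-diet ozone libraries, against 302 to 361 CPM (median 322) in control-diet air libraries. The groups did not overlap on either diet, and Ldha rose 1.32-fold, a log2 change of 0.40 ± 0.06 (SE; adjusted p = 2.73e-05) on the DHA-rich diet and by 0.42 ± 0.06 (adjusted p = 3.78e-05) on the control diet. Ldhb, the subunit that favours using lactate, was not called, with changes of 0.11 ± 0.09 (adjusted p = 0.396) on the DHA-rich diet and 0.06 ± 0.09 (adjusted p = 0.697) on the control diet. Without DHA-diet ozone library 1, the lowest for Ldhb at 218 CPM, the change on the DHA-rich diet passed the threshold (0.20, adjusted p = 0.0350).

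Slc16a1, a transporter that moves lactate and pyruvate with a proton across the cell surface, rose on the control diet. It had 46.96 to 92.4 CPM (median 87.7) in control-diet ozone libraries, against 54.6 to 71.3 CPM (median 59.3) in control-diet air libraries. Ozone library 1 was at 47.0 CPM, below every air library, while the other 5 ozone libraries ran from 87.0 to 92.4 CPM, above all of them. The rise was 1.35-fold, a log2 change of 0.44 ± 0.11 (SE; adjusted p = 0.00728), which ended without control-diet air libraries 1 to 3 (0.34, adjusted p = 0.121). On the DHA-rich diet Slc16a1 had 69.4 to 94.8 CPM (median 84.3) in DHA-diet ozone libraries, against 62.9 to 78.8 CPM (median 73.1) in DHA-diet air libraries. The change was 0.21 ± 0.11 (adjusted p = 0.179) and passed the threshold without control-diet ozone library 1 (0.21, adjusted p = 0.0222). That library enters there through the filter, scaling and spread that all libraries share. Slc16a3, the lactate exporter of strongly glycolytic cells, changed by 0.22 ± 0.10 (adjusted p = 0.112) on the DHA-rich diet and 0.18 ± 0.10 (adjusted p = 0.233) on the control diet. It passed the threshold on the DHA-rich diet without DHA-diet ozone library 1 (0.28, adjusted p = 0.0314).

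Of the 7 genes of pyruvate entry, Pdk3 and Mpc2 rose on both diets. That is 28.6% on each diet, where 12.7% of all genes rose on the DHA-rich diet and 8.93% on the control diet. Pdk3, a member of the kinase family that switches off pyruvate dehydrogenase, had 22.3 to 27.5 CPM (median 25.1) in DHA-diet ozone libraries, against 17.9 to 22.3 CPM (median 20.3) in DHA-diet air libraries. With the control diet Pdk3 had 25.7 to 29.4 CPM (median 26.02) in control-diet ozone libraries, against 19.9 to 22.5 CPM (median 20.8) in control-diet air libraries. All ozone libraries lay above the air libraries of the same diet, narrowly so on the DHA-rich diet, and Pdk3 rose by 0.31 ± 0.06 (adjusted p = 0.000765) on the DHA-rich diet and by 0.35 ± 0.06 (adjusted p = 0.000452) on the control diet. Mpc2, a subunit of the carrier that takes pyruvate into mitochondria, had 63 to 82.2 CPM (median 66.99) in DHA-diet ozone libraries, against 54.9 to 61.4 CPM (median 58.5) in DHA-diet air libraries, with no overlap. In mice on the control diet Mpc2 had 59.9 to 72.1 CPM (median 68.1) in control-diet ozone libraries, against 46.9 to 64.4 CPM (median 56.3) in control-diet air libraries, and the groups overlapped. It rose by 0.27 ± 0.08 (adjusted p = 0.0095) on the DHA-rich diet and by 0.26 ± 0.08 (adjusted p = 0.02) on the control diet, where the call ended without any 1 of air libraries 1 to 3 or without ozone library 3 (adjusted p of 0.0524 to 0.0577). Without control-diet air libraries 1 to 3 together, the Mpc2 change on the control diet was 0.08 (adjusted p = 0.515).

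Mpc1, the partner subunit of Mpc2, was not called, with −0.14 ± 0.08 (adjusted p = 0.21) on the DHA-rich diet and 0.17 ± 0.08 (adjusted p = 0.151) on the control diet. The kinases Pdk1 and Pdk2 were not called either: Pdk1 changed by −0.02 ± 0.06 (adjusted p = 0.822) on the DHA-rich diet and 0.04 ± 0.06 (adjusted p = 0.669) on the control diet, and Pdk2 by −0.00 ± 0.08 (adjusted p = 0.992) and −0.14 ± 0.08 (adjusted p = 0.277) in that order. Pdha1 and Pdhb encode the alpha and beta subunits of the enzyme that the kinases act on. Pdha1 changed by 0.09 ± 0.06 (adjusted p = 0.342) on the DHA-rich diet and −0.01 ± 0.06 (adjusted p = 0.954) on the control diet, and Pdhb by 0.12 ± 0.06 (adjusted p = 0.107) and 0.09 ± 0.06 (adjusted p = 0.286) in that order. Pdhb on the DHA-rich diet passed the threshold without DHA-diet ozone library 1 (0.17, adjusted p = 0.0105).

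Neighbouring pathways were read from lists of genes around glycolysis. The pentose phosphate pathway branches from glucose phosphate and makes NADPH. Of 8 genes listed for it, 4 (50%) rose on the DHA-rich diet and 3 (37.5%) on the control diet, with 0 lower. Among all genes tested, 12.7% rose and 11% fell on the DHA-rich diet, and 8.93% rose and 7.87% fell on the control diet. Taldo1, transaldolase of the non-oxidative branch, rose by 0.53 ± 0.07 (adjusted p = 1.2e-05) on the DHA-rich diet and 0.34 ± 0.07 (adjusted p = 0.00161) on the control diet, and had 221 to 319 CPM (median 245) in DHA-diet ozone libraries, against 151 to 188 CPM (median 182) in DHA-diet air libraries. Tkt, transketolase of the same branch, rose by 0.32 ± 0.07 (adjusted p = 0.00148) on the DHA-rich diet and 0.33 ± 0.07 (adjusted p = 0.0017) on the control diet. G6pdx, the enzyme that commits glucose phosphate to this pathway, rose by 0.39 ± 0.09 (adjusted p = 0.00386) on the DHA-rich diet and 0.43 ± 0.10 (adjusted p = 0.00263) on the control diet. Of 17 genes of the tricarboxylic acid cycle, 10 (58.8%) rose on the DHA-rich diet and 3 (17.6%) on the control diet, with 0 lower. The shares of all genes that rose were 12.7% and 8.93% in that order. The median log2 change of the cycle's genes was 0.17 on the DHA-rich diet and 0.09 on the control diet. Fh1, fumarase, rose by 0.21 ± 0.04 (adjusted p = 0.000196) on the DHA-rich diet and Sdhc, a subunit of succinate dehydrogenase, by 0.17 ± 0.04 (adjusted p = 0.00176), and Sdhc by 0.21 ± 0.04 (adjusted p = 0.000621) on the control diet. Fh1 was also called on the control diet, at 0.11 ± 0.04 (adjusted p = 0.0405), but in 18 of the 24 fits that left out 1 library it was not.

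**Figure D3:**
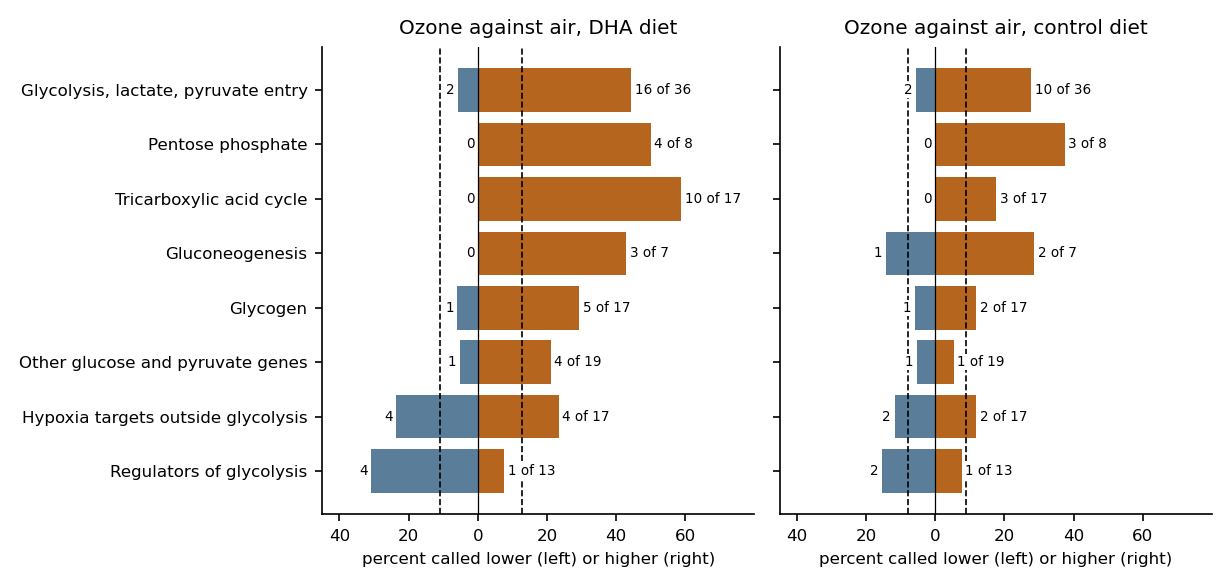
Percent of the tested genes of each list called higher (right) or lower (left) after ozone, on the DHA-rich diet and on the control diet, with the number called; dashed lines mark the percent of all 16153 genes called in each direction. The 36 genes, the pentose phosphate genes and the tricarboxylic acid cycle genes reach well right of the dashed line on the DHA-rich diet, and the regulators have more genes on the lower side than on the higher side.

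For the next lists, the shares of all genes are again 12.7% higher and 11% lower on the DHA-rich diet. On the control diet they are 8.93% and 7.87%. Of 7 genes of gluconeogenesis, 3 (42.9%) rose on the DHA-rich diet, and 2 rose (28.6%) and 1 fell (14.3%) on the control diet. The gene that fell was Pck1, the cytosolic enzyme that makes phosphoenolpyruvate from oxaloacetate, at −1.52 ± 0.44 (adjusted p = 0.0175), and its call ended without control-diet air library 1 (−1.23, adjusted p = 0.0663) and without libraries 1 to 3 together (−0.81, adjusted p = 0.338). Adipocyte markers, of which 0 of 8 were at 0 in all libraries, summed to 76.77 to 131.6 CPM in control-diet ozone libraries, against 114 to 175 CPM in control-diet air libraries, and 2 of the 8 were called lower there. The sums on the DHA-rich diet were 80.79 to 114.1 CPM in ozone and 70.19 to 160.8 CPM in air libraries, with 1 marker (12.5%) called lower. The part of adipocytes in the Pck1 change was not tested. Pcx, pyruvate carboxylase, which also refills the tricarboxylic acid cycle, had 117 to 152 CPM (median 132) in DHA-diet ozone libraries, against 76.01 to 98.4 CPM (median 87.8) in DHA-diet air libraries. It rose by 0.60 ± 0.08 (adjusted p = 1.68e-05) on the DHA-rich diet and 0.47 ± 0.08 (adjusted p = 0.000369) on the control diet. Of 17 tested glycogen genes, 5 rose (29.4%) and 1 fell (5.88%) on the DHA-rich diet. On the control diet 2 rose (11.8%) and 1 fell (5.88%), near the shares of all genes. Pgm1, phosphoglucomutase, which links glycogen to glucose phosphate, rose by 0.36 ± 0.06 (adjusted p = 7.49e-05) on the DHA-rich diet and 0.30 ± 0.06 (adjusted p = 0.000729) on the control diet. Among 19 tested other genes of glucose and pyruvate use, 4 rose (21.1%) and 1 fell (5.26%) on the DHA-rich diet. On the control diet 1 rose and 1 fell (5.26% each), below the shares of all genes. The gene that fell there was Pdk4, a pyruvate dehydrogenase kinase induced by fasting and fat use, which had 8.71 to 27.9 CPM (median 19.7) in control-diet ozone libraries, against 19.8 to 84.03 CPM (median 40.8) in control-diet air libraries. Its change was −1.28 ± 0.29 (adjusted p = 0.00306), and without control-diet air libraries 1 to 3 it was −0.48 (adjusted p = 0.274).

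Of 17 tested hypoxia targets outside glycolysis, 4 rose and 4 fell on the DHA-rich diet (23.5% each), where 12.7% of all genes rose and 11% fell. On the control diet 2 rose and 2 fell (11.8% each), near the 8.93% and 7.87% of all genes. Vegfa, the growth factor of blood vessels, had 689.6 to 824 CPM (median 719) in DHA-diet ozone libraries, against 842 to 935 CPM (median 870) in DHA-diet air libraries. Every ozone library lay below every air library on that diet. The log2 change of Vegfa was −0.27 ± 0.05 (adjusted p = 0.000382) on the DHA-rich diet and −0.21 ± 0.05 (adjusted p = 0.00493) on the control diet. Kdm3a, a histone demethylase, changed by −0.26 ± 0.06 (adjusted p = 0.00175) on the DHA-rich diet, Plod2, a collagen-modifying enzyme, by −0.29 ± 0.06 (adjusted p = 0.00148), and Bnip3l, a receptor for the removal of mitochondria, by −0.18 ± 0.04 (adjusted p = 0.0024). The calls of these 4 genes that fell held under every alternative on the DHA-rich diet, while those of the risers Higd1a, Mif, Ddit4 and Adm ended in 1, 5, 12 and 12 alternatives, in that order. The 2 risers on the control diet were Higd1a, a mitochondrial protein, at 0.21 ± 0.06 (adjusted p = 0.0106), and Mif, a cytokine, at 0.29 ± 0.08 (adjusted p = 0.016), and both calls ended without control-diet air libraries 1 to 3 (adjusted p = 0.356 and 0.335). The change of Kdm3a there was −0.18 ± 0.06 (adjusted p = 0.0321), and its call ended without control-diet air library 1, 2 or 3 or without ozone library 1 of that diet (highest adjusted p over all alternatives 0.275). Of 13 regulators of glycolysis, 1 rose (7.69%) and 4 fell (30.8%) on the DHA-rich diet, and 1 rose (7.69%) and 2 fell (15.4%) on the control diet. The shares that rose were below those of all genes. Mlxip and Mlxipl, related factors that sense glucose phosphate and switch on glycolytic and fat-making genes, were both lower. Mlxip had 60.5 to 72.4 CPM (median 65.8) in DHA-diet ozone libraries, against 76.8 to 87 CPM (median 82.01) in DHA-diet air libraries. It changed by −0.32 ± 0.05 (adjusted p = 9.45e-05) on the DHA-rich diet and −0.23 ± 0.05 (adjusted p = 0.00317) on the control diet, and Mlxipl by −0.34 ± 0.12 (adjusted p = 0.0392) and −0.53 ± 0.12 (adjusted p = 0.00302) in the same order. The DHA-rich diet's Mlxipl call ended without DHA-diet air library 1, 5 or 6 or DHA-diet ozone library 1, 4 or 5 (highest adjusted p over all alternatives 0.148). The riser on the DHA-rich diet was Myc, a transcription factor of growth, which had 9.12 to 16.4 CPM (median 12.8) in DHA-diet ozone libraries, against 7.67 to 10.2 CPM (median 8.92) in DHA-diet air libraries and rose by 0.52 ± 0.13 (adjusted p = 0.00511). The riser on the control diet was Hif1a, the oxygen-sensitive subunit of a hypoxia-inducible factor, at 0.15 ± 0.05 (adjusted p = 0.0397), a call lost in 11 of the 24 fits that left out 1 library. Transcripts alone do not report the activity of these factors.

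None of the 36 genes passed the threshold between the diets in the edgeR fit over all 24 libraries. Between the DHA-rich diet and the control diet, 0 members were called in air, where 0.724% of all genes were higher and 0.427% lower, and 0 after ozone, where 0% of all genes were called in either direction with edgeR, and 38 higher and 37 lower with DESeq2. Some members had an unadjusted p under 0.05: 9 in air and 8 after ozone. DESeq2 called 1 member lower on the DHA-rich diet in air, Pfkm, and 1 higher after ozone, Bpgm, and limma-voom called 2 lower in air, Pfkm and Eno3. In a fit of only the 2 air groups Slc16a3 was called lower on the DHA-rich diet (−0.26, adjusted p = 0.0477), where the fit over all groups gave −0.25 (95% interval −0.46 to −0.04, adjusted p = 0.187). Without control-diet air libraries 4 to 6, Pdk2 was called lower (−0.35, adjusted p = 0.0176), as was Pfkm (−0.38, adjusted p = 0.00934). With all libraries Pdk2 had −0.19 (95% interval −0.37 to −0.02, adjusted p = 0.225). Library totals as the scaling moved the split of all genes called in air to 72 higher and 113 lower, from 117 and 69, with 0 members called. The number of all genes called in air moved with single libraries. It was 0 higher and 0 lower without control-diet air libraries 1 to 3, 37 and 12 without control-diet air library 1, 277 and 439 without control-diet air library 6, and 308 and 346 without DHA-diet ozone library 1. Over all fits that left out 1 library it ran from 37 to 308 higher and from 12 to 439 lower. The 95% intervals of the members had a median full width of 0.32 on the log2 scale in air and also 0.32 after ozone. Differences that lie inside these intervals are not excluded, and the size of change that could be missed was not computed.

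The member nearest to the threshold in air was Pfkm, with 48.2 to 59.6 CPM (median 52.99) in DHA-diet air libraries, against 54.8 to 73.3 CPM (median 59.8) in control-diet air libraries, a difference of −0.26 (95% interval −0.42 to −0.09, adjusted p = 0.0896). It passed the threshold without control-diet air library 6 (−0.30, adjusted p = 0.0315) or DHA-diet ozone library 1 (−0.26, adjusted p = 0.0320). Eno3 differed by −0.34 (95% interval −0.58 to −0.09, adjusted p = 0.138) and Eno1 by −0.15 (95% interval −0.25 to −0.04, adjusted p = 0.131). After ozone it was Bpgm, with 70.3 to 137 CPM (median 86.98) in DHA-diet ozone libraries, against 61.6 to 75.8 CPM (median 70.2) in control-diet ozone libraries, a difference of 0.44 (95% interval 0.20 to 0.68, adjusted p = 0.153), which passed the threshold without DHA-diet ozone library 2 (0.49, adjusted p = 0.0479). For genes with a clear ozone rise on both diets, the difference between the diets after ozone was 0.01 (95% interval −0.10 to 0.12, adjusted p = 0.961) for Pgk1, 0.04 (95% interval −0.08 to 0.16, adjusted p = 0.807) for Ldha and 0.11 (95% interval 0.00 to 0.22, adjusted p = 0.341) for Pkm.

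Whether the ozone response differed between the diets was tested by the interaction of diet and ozone, which called 0 of the 36 members and 0% of all genes in either direction with edgeR. Of the members, 4 had an unadjusted p under 0.05, and DESeq2 and limma-voom also called 0 members (of all genes, DESeq2 called 2 higher and 3 lower, and limma-voom 0 higher and 2 lower). The larger count of risers on the DHA-rich diet is therefore not shown to be a larger response. Eno1 had the smallest p, with a rise larger by 0.26 (95% interval 0.11 to 0.41, adjusted p = 0.619) on the DHA-rich diet, followed by Mpc1 at −0.31 (95% interval −0.55 to −0.07, adjusted p = 0.664), Slc2a3 at 0.42 (95% interval 0.06 to 0.78, adjusted p = 0.737) and Bpgm at 0.34 (95% interval 0.00 to 0.68, adjusted p = 0.813). For Ldha the difference was −0.02 (95% interval −0.19 to 0.15, adjusted p = 0.993) and for Pgk1 0.07 (95% interval −0.09 to 0.22, adjusted p = 0.947). The median interval was 0.45 wide on the log2 scale.

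Some members are typical of cells other than lung cells, and their levels ran with markers of those cells across the 24 libraries. These 6 relations were chosen after their values were seen, are on log2 CPM, and have permutation p-values from 100000 shuffles, adjusted over the 6. The shuffles moved libraries across the 4 groups, so these p-values also reflect differences between groups. Eno3 followed the sum of 12 cardiac muscle markers with Pearson r = 0.87 and Spearman rho = 0.884, Pgam2 with r = 0.876 and rho = 0.848, and Pfkm with r = 0.876 and rho = 0.874 (permutation p = 1e-05 for each, the smallest that the shuffles can give, adjusted 2e-05). With the group means removed, r was 0.841, 0.858 and 0.816 in that order, and without the 2 libraries farthest from the median marker sum 0.829, 0.917 and 0.774. The cardiac sums ran from 1297 to 2038 CPM in DHA-diet ozone, 1365 to 2190 in DHA-diet air, 1251 to 2078 in control-diet ozone and 1781 to 2950 CPM in control-diet air libraries, where the 2 highest were libraries 1 and 2. Of the 12 cardiac markers, 0 were at 0 in all libraries. After ozone, 1 (8.33%) was called lower on the DHA-rich diet, where 11% of all genes were. On the control diet 3 (25%) were called lower, against 7.87% of all genes. The part of these markers in the lower Eno3 on the control diet was not tested.

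Bpgm followed the sum of 8 erythroid markers with r = 0.962 and rho = 0.937 (permutation p = 1e-05, adjusted 2e-05). Its r was 0.935 without the 2 farthest libraries and 0.951 with the group means removed. These markers summed to 75.4 to 282.9 CPM in DHA-diet ozone, 104.1 to 147.1 in DHA-diet air, 51.3 to 95.96 in control-diet ozone and 78.5 to 132.5 CPM in control-diet air libraries, and 3 of the 8 were at 0 in all libraries. Of the 4 tested, 0 were called on the DHA-rich diet, where 12.7% of all genes were higher and 11% lower. On the control diet 2 (50%) were lower, against 7.87% of all genes. Slc2a3 followed the sum of 10 neutrophil markers with r = 0.671 and rho = 0.455 (permutation p = 0.00044 and 0.0254, adjusted 0.000528 and 0.0305). That r fell to 0.351 without the 2 farthest libraries, so it rests on them, and was 0.607 with the group means removed. Hk3 had r = 0.538 and rho = 0.426 with the same sum (permutation p = 0.00689 and 0.0382, adjusted the same). Its r was 0.543 without the 2 farthest libraries and fell to 0.445 with the group means removed. DHA-diet ozone library 2, with the highest neutrophil sum, had the highest Hk3 of its group at 9.15 CPM. Library 1 of that group, with a neutrophil sum of 279.2 CPM, had its lowest Hk3 at 4.58 CPM. Neutrophil markers summed to 78.4 to 364.8 CPM in DHA-diet ozone, 48.6 to 86.0 in DHA-diet air, 60.2 to 171.7 in control-diet ozone and 55.2 to 204.2 CPM in control-diet air libraries, and 0 of the 10 were at 0 in all libraries. The part of these cells in the changes of Hk3 and Bpgm was not tested.

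**Figure D4:**
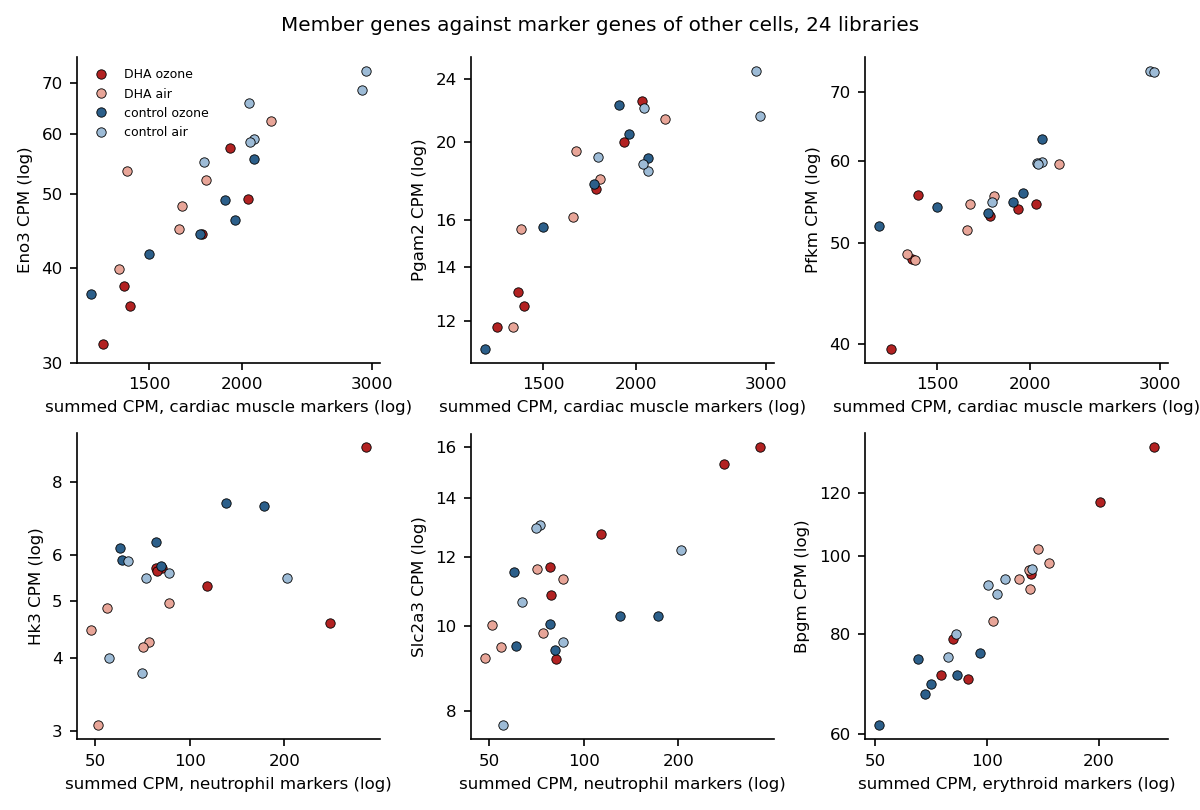
Level of 6 genes against the summed level of marker genes of cardiac muscle, neutrophils or red cells, both in CPM on log axes, 1 point per library, coloured by group. Eno3, Pgam2 and Pfkm climb with the cardiac sum and Bpgm with the erythroid sum, while Slc2a3 climbs mainly through the 2 DHA-diet ozone libraries with the highest neutrophil sums.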

How the data were processed

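RNA sequencing measured gene expression in 24 mouse lung libraries, 6 per group. The deposited table holds the authors' whole-number counts per gene for 26253 genes, made with Partek, STAR and HTSeq on mm39 per the submitters' processing notes. Tool versions, annotation and use of strand were not given in the sources used here. Counts of 1 gene, Scgb1a1, were written with 3 significant digits. Group and replicate number were read from the sample titles.

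The counts were filtered with filterByExpr of edgeR 4.0.16 in R 4.3.3 (minimum count 10, minimum total 15), which kept 16153 genes. They were scaled by TMM and fitted over all 24 libraries, 20 residual degrees of freedom, by the quasi-likelihood test with Benjamini-Hochberg adjustment over all genes and a threshold of 0.05. CPM are edgeR's, on TMM-scaled library sizes. The script was tested on simulated data. Alternatives were RLE size factors, library totals, no filter, 1 CPM in 6 libraries, DESeq2 1.42.0, limma-voom with quality weights (limma 3.58.1), only the groups compared, an adjusted p of 0.01, a replicate block, each library left out, and 3 sets of libraries left out, which were chosen with earlier results of these data known. Relations and promoter matches used Python 3.11.15, numpy 2.4.6, pandas 2.3.3 and scipy 1.17.1. Shared stretches were counted as 50-base and 100-base runs of each gene's longest protein-coding transcript that were also found in transcripts of other genes. These transcripts are from GENCODE on build GRCm38, older than the mm39 of the counts. Levels per kilobase were divided by the length of the same transcript.

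The members and lists were chosen with earlier results of these data known. Every member is accounted for, and members called in a comparison are given with levels in each group, or, where over 12 were called, the 12 with the smallest p. From other lists up to 4 called genes with the smallest p per comparison are named. Same-numbered libraries did not deviate together: their mean correlation was −0.0169, from −0.21 to 0.0966, and 0 of 24 libraries were closest to their own number, so no pairing was used. Libraries of a group differed by more than counting noise (lowest chi-square per degree of freedom 4.71). The deposited table's value columns were all mapped to samples, and 0 were left unused.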

Additional observations from a re-analysis of the deposited data

Results flagged for a closer look

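Of 144 sets of 6 libraries (36 genes in 4 groups), 14 had a highest or lowest library whose gap to the next exceeded Dixon's 95% value for 6 samples, where chance alone flags about 1 in 20. Control-diet ozone library 1 stood apart for 4 genes. It had 46.96 CPM for Slc16a1, against 87.03 to 92.44 CPM in the other 5 libraries of its group. It was high for Ldhb at 436.0 CPM (others 318.8 to 347.1), for Tpi1 at 181.8 CPM (159.3 to 166.4) and for Pdk3 at 29.38 CPM (25.7 to 26.96). DHA-diet ozone library 1, which also had the highest proliferation marker sum, was low for Ldhb at 218.0 CPM (others 314.4 to 361.9) and high for Pkm at 611.0 CPM (459.8 to 501.6).

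DHA-diet ozone library 2, with the highest neutrophil marker sum, was high for Hk3 at 9.154 CPM (others 4.584 to 5.7). The lowest of the others, 4.584 CPM, was DHA-diet ozone library 1, with a neutrophil marker sum of 279.2 CPM. DHA-diet ozone library 3 was high for Tpi1 at 180.4 CPM (163.2 to 169.5). DHA-diet air library 1 was low for Hk1 at 78.74 CPM (86.28 to 89.75) and for Pfkp at 50.26 CPM (57.18 to 59.73), and DHA-diet air library 6 was high for Gpi1 at 242.1 CPM (213.9 to 224.4). Control-diet ozone library 5 was high for Pfkm at 63.02 CPM (52.0 to 55.88) and control-diet ozone library 2 for Eno2 at 5.953 CPM (3.608 to 4.248). Control-diet air library 6 was low for Pfkfb3 at 82.66 CPM (96.22 to 104.3).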

How the results depend on the processing

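None of the alternatives turned the direction of a called member. The number of members higher after ozone ran from 12 to 18 on the DHA-rich diet and from 8 to 10 on the control diet when 1 library was left out. Members lower after ozone, 2 on the DHA-rich diet, became 1 with no filter and 0 with only the 2 groups compared or an adjusted p under 0.01, and 1 to 2 when 1 library was left out. The 2 lower on the control diet became 4 with library totals, with limma-voom, without control-diet air libraries 4 to 6 and without DHA-diet ozone libraries 1 and 2, became 1 with an adjusted p under 0.01 and without control-diet air libraries 1 to 3, and ran from 1 to 4 when 1 library was left out. Members lower on the DHA-rich diet in air, 0 in the main test, became 1 with DESeq2, with only the 2 groups compared and without DHA-diet ozone libraries 1 and 2, 2 with limma-voom and without control-diet air libraries 4 to 6, and 0 to 1 when 1 library was left out. After ozone, members higher on the DHA-rich diet became 1 with DESeq2 and 0 to 1 when 1 library was left out. The replicate block gave 15 members higher and 2 lower on the DHA-rich diet and 10 and 2 on the control diet, and of 180 member results it ended 1 call, that of Slc2a1 on the DHA-rich diet (log2 change 0.23, adjusted p = 0.0534). Where the alternatives differ, the cause was not tested.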
